A study of Mus musculus with 4 samples.

Results

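The genes of MHC class I peptide loading were followed in T8 leukemia cells with and without IRF4. The 10 genes, a named list from the pathway, were *H2-K1*, *H2-D1*, *H2-T23*, *H2-Q4*, *B2m*, *Tap1*, *Tap2*, *Tapbp*, *Erap1* and *Nlrc5*, out of 55359 Ensembl identifiers counted. The list was chosen with earlier results of these data known. T8 is a pB-ALL cell line of B-cell progenitors established from 1 primary tumor of an *Irf4*-/- mouse, and its tumor carried a somatic *Jak3* mutation, so the control cells share both the deletion and this mutation with the IRF4 cells. Cells received a retrovirus coding for GFP alone (EV-RV, 2 libraries) or for GFP plus IRF4 (IRF4-RV, 2 libraries), and bulk RNAseq was performed on viable cells the day after transduction. The line was derived on a feeder layer of irradiated ST2 stromal cells with IL-7 and later grew without these cells. From sequences of its immunoglobulin heavy chain junctions the tumor was described as clonal. Which subline was used and whether GFP+ cells were sorted before RNA extraction are not given in the sources used here. The labels call the libraries biological replicates without naming separate cultures, so p-values measure only the spread between these libraries.

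MHC class I molecules display peptides from inside the cell to CD8+ T cells and NK cells. A heavy chain pairs with β2-microglobulin in the endoplasmic reticulum (ER), the TAP transporter brings peptides in from the cytosol, tapasin bridges TAP and the empty heavy chain, and ER peptidases trim the peptides before the loaded molecule leaves for the surface. Interferon and NF-κB act on the promoters of these genes through short elements to which IRF and Rel proteins bind, whereas NLRC5 acts together with RFX, CREB and NF-Y factors bound at a separate promoter module.

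Because IRF proteins bind repeats of GAAA, the RefSeq promoter sequences (GRCm38.p6, 250 bases before to 50 bases after the start) were searched on both strands for the IRF repeat GAAANNGAA and for the κB letters GGGATTCCC and GGGANTTCC. A second form of the IRF repeat, GAANNGAAA, was added after the promoters had been seen. The 2 forms can share bases, but no promoter of these genes held both. Sequences were matched for 8 of the 10 genes, and *Tap2* and *Nlrc5* had no entry. The windows of 60 bases that hold the matches are shown 5′ to 3′ on the strand of the gene, since they separate the heavy chains with both elements from those with 1, with the matched letters in capitals, as found or as their reverse complement. The windows of *H2-D1*, *H2-T23* and *Erap1* lie inside the GENCODE gene bounds given with each gene, since RefSeq places their starts further in. The whole *Tapbp* sequence searched (chr17:33919228-33919527) also lies inside the bounds of its gene, so its result covers only that start. For *H2-K1*, 2 promoters were listed and only the first was searched.
H2-K1 promoter, chr17:34000414-34000473, minus strand: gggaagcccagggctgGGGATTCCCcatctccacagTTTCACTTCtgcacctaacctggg
H2-D1 promoter, chr17:35262908-35262967, plus strand: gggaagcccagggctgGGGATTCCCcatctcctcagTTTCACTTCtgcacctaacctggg
H2-Q4 promoter, chr17:35379428-35379487, plus strand: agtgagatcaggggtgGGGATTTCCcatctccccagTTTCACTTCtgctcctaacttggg
H2-T23 promoter, chr17:36032791-36032850, minus strand: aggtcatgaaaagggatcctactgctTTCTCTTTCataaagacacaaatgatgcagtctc
B2m promoter, chr2:122147522-122147581, plus strand: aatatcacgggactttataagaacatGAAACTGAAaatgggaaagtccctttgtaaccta
Erap1 promoter, chr13:74639821-74639880, plus strand: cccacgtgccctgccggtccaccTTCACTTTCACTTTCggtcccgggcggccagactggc

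*H2-K1* and *H2-D1*, the classical heavy chains, held the same κB letters and the second form of the IRF repeat at the same spacing, and their windows differed at 1 of 60 bases. *H2-Q4* held the κB letters in the other version and the same IRF letters, and its window differed from each of them at 10 of 60 bases. *H2-T23* and *B2m* held the first form of the IRF repeat, and in *Erap1* this form matched at 2 overlapping positions across the start. The κB letters searched matched in neither *H2-T23* nor *B2m*, but κB sites of other letters or another length were not searched for. The *Tap1* and *Tapbp* sequences had no match to either motif. Counting either form, 6 of 8 promoters of these genes (75%) matched the IRF repeat, against 14.8% of 32851 RefSeq promoters. Within 150 bases before the start 5 of 8 did so. The second form was added after these promoters had been seen, and its matches lie in the similar windows of *H2-K1*, *H2-D1* and *H2-Q4*. Nothing is therefore read from the 75%. The first form alone matched 3 of 8 promoters and 8.56% of all, and the second form 3 of 8 and 7.52% of all. GGGATTCCC was found in 2 of 8 and in 0.353% of all promoters, and GGGANTTCC in 1 of 8 and in 1.68%. The IRF-ETS composite GGAANTGAA, AP-1 TGANTCA, GAS TTCNNNGAA and CRE TGACGTCA were found in 0 of the 8, and in 2.35%, 7.81%, 8.3% and 1.79% of all promoters. A match describes letters only, and binding was not measured.

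**Figure D1:**
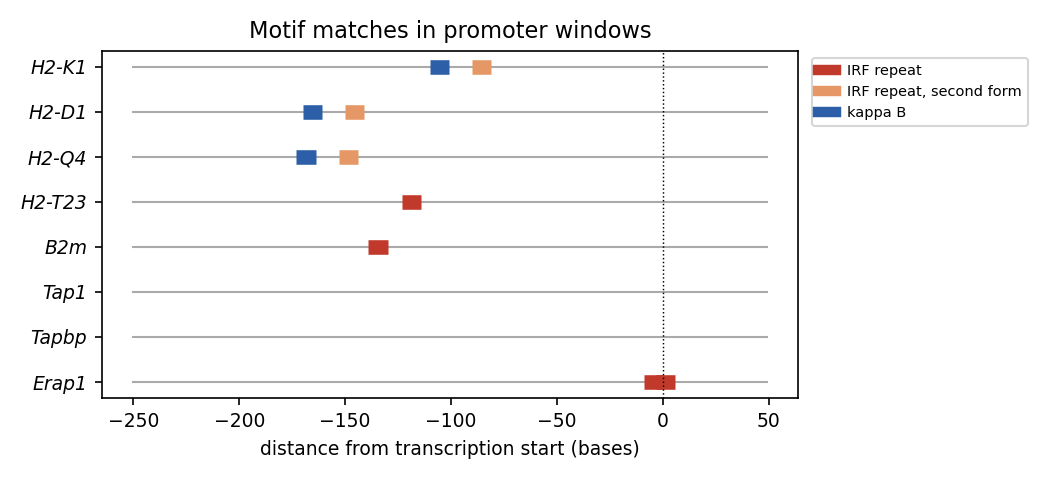
Matches to the IRF repeat (red), its second form (orange) and the κB letters (blue) along 8 promoter sequences, plotted by distance from the transcription start in bases. *H2-K1*, *H2-D1* and *H2-Q4* carry a κB match followed by the second form of the IRF repeat, and *Tap1* and *Tapbp* carry no match.

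Total counts were 31230223 to 31686715 for EV-RV and 34771970 to 37817752 for IRF4-RV. The floor of 3 counts equals 0.0824 to 0.0952 CPM (counts scaled to library size after TMM factors) and, like the depth itself, speaks to counting error only. *Irf4* itself had 8070 and 7600 counts in the EV-RV pair against 95578 and 90693 in the IRF4-RV pair, a log2 fold change of 3.46, and counts over the whole gene do not check the deleted part or separate vector from locus. Of 14637 genes tested with edgeR's quasi-likelihood test, 4349 passed the FDR cutoff of 0.1 (29.7%), 16.0% of the genes tested higher and 13.7% lower with IRF4-RV. These are 2340 higher and 2009 lower genes, whereas scaling by library size alone gave 1743 and 2867. Of 10 B-cell progenitor markers, 8 were well counted and *Rag1* and *Rag2* had at most 1 count in each library. Their summed level was 3518 and 3685 CPM with EV-RV against 2488 and 2482 CPM with IRF4-RV. In bulk RNA, fewer cells of a type and less RNA per cell cannot be told apart.

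With IRF4-RV, 7 of the 10 genes rose and 0 fell, against the background of 16.0% higher and 13.7% lower among all genes tested. The median log2 fold change of the 10 was 0.59, and that of all genes tested was 0.00726. Because the list was chosen with earlier results of these data known, these values describe it and are not a test of it. *H2-T23*, *Tapbp* and *Tap1* changed most, *Nlrc5*, *B2m*, *H2-Q4* and *H2-D1* by less, and *H2-K1*, *Tap2* and *Erap1* did not pass the test. The same 7 genes were called higher and 0 lower with DESeq2 and with library size only. At an unadjusted p under 0.05 in edgeR, 8 genes were higher and 0 lower, where 18.4% of all genes tested were higher and 16.2% lower. Without EV-RV replicate 2 the count was 8, since *H2-K1* passed (log2 fold change 0.22, edgeR adjusted p = 0.083).

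**Figure D2:**
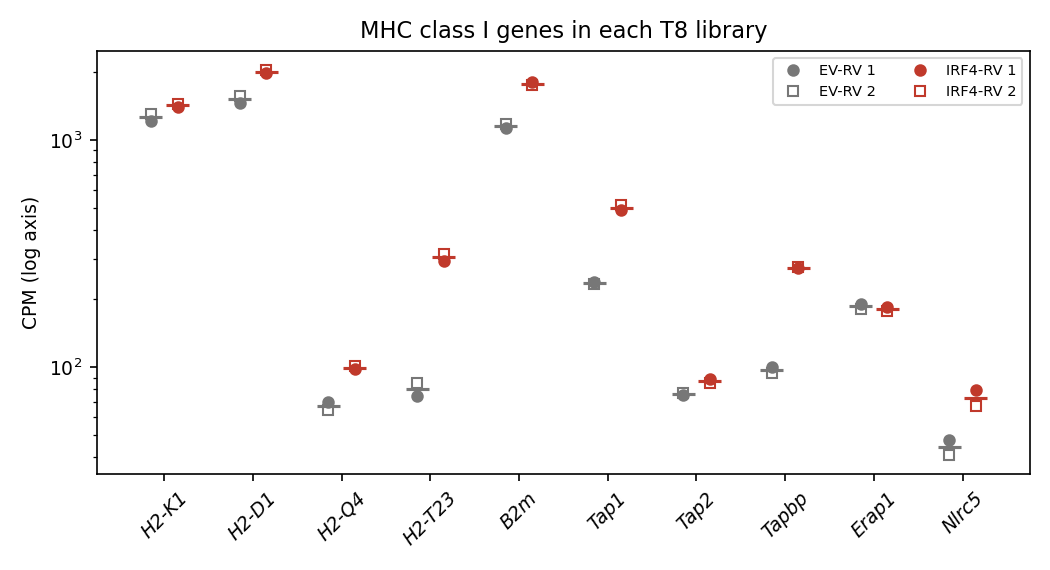
Normalized level in CPM of each of the 10 genes in the EV-RV and IRF4-RV libraries, on a log axis, with filled circles for replicate 1, open squares for replicate 2 and a bar for their mean. The groups are apart for every gene but *Erap1*, which has 190 and 181 CPM with EV-RV and 184 and 176 CPM with IRF4-RV. *H2-K1* and *Tap2* are apart without passing the test, and the share of all genes that are apart is not given here.

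Among the 4 heavy chains of the list, *H2-T23*, *H2-D1* and *H2-Q4* rose, *H2-T23* with the largest fold change, and *H2-K1* did not pass the test. *H2-T23* encodes Qa-1, which presents leader peptides of other class I molecules to the NK cell receptor CD94/NKG2A. It lies on the minus strand at chr17:36029773-36032855 (GRCm38) and had 2495 and 2680 counts in the EV-RV pair against 9911 and 11482 in the IRF4-RV pair. Both IRF4-RV libraries were above both EV-RV libraries, with means of 79.9 ± 7.23 and 304 ± 16.1 CPM (SD, n = 2 each). This is a 3.81-fold rise (log2 fold change 1.93 ± 0.0909 SE, edgeR adjusted p = 1.04e-05), and the log2 fold change lay between 1.83 and 2.03 when 1 library was dropped.

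*H2-D1* (chr17:35262730-35267499, plus strand), which encodes the classical H-2D heavy chain, had 48814 and 49439 counts in the EV-RV pair against 66769 and 74106 in the IRF4-RV pair. Its level rose from 1516 ± 74.2 to 2003 ± 45.3 CPM (SD, n = 2 each), without overlap of the groups (log2 fold change 0.40 ± 0.0738 SE, edgeR adjusted p = 0.00674). *H2-K1* (chr17:33996017-34000347, minus strand), the other classical heavy chain, had 40660 and 41261 counts in the EV-RV pair against 47463 and 52460 in the IRF4-RV pair. These are 1264 ± 63.6 and 1421 ± 27.9 CPM (SD, n = 2 each). The groups did not overlap, but the log2 fold change of 0.17 (± 0.0738 SE, edgeR adjusted p = 0.149) did not pass, with an unadjusted 95% interval of -0.0019 to 0.34.

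The count ratio of the classical pair was nearly equal within each group and apart between groups. Each *H2-K1* count was matched by 1.2 *H2-D1* counts in both EV-RV libraries and by 1.41 in both IRF4-RV libraries. With 2 libraries against 2 the exact permutation test (two-sided) gave p = 0.333, the smallest it can give. Counts of *H2-T23* per count of *H2-K1* were 0.0614 and 0.065 with EV-RV against 0.209 and 0.219 with IRF4-RV.

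*H2-Q4* (chr17:35379617-35385290, plus strand), which encodes a nonclassical heavy chain of the Qa region, had 2338 and 2048 counts in the EV-RV pair against 3317 and 3690 in the IRF4-RV pair. It rose from 67.5 ± 3.62 to 99.6 ± 2.41 CPM (SD, n = 2 each) without overlap of the groups (log2 fold change 0.56 ± 0.0799 SE, edgeR adjusted p = 0.00214). The heavy chains resemble each other, and reads within shared stretches could be assigned to the wrong gene. Of all stretches of 50 bases in the transcripts, 9.63% of *H2-K1*, 12.8% of *H2-D1*, 13.6% of *H2-T23* and 21.8% of *H2-Q4* occur in another gene, against 0 for *B2m*, *Erap1* and *Nlrc5*. Exons of *H2-Q4* also overlap the opposite-strand gene *Gm11131* over 19.1% of their length, and how strand was treated in counting is not given in the sources used here.

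*B2m*, which encodes the light chain shared by all class I molecules, rose with a larger fold change than either classical heavy chain. It lies at chr2:122147686-122153083 (plus strand) and had 37741 and 37216 counts in the EV-RV pair against 61007 and 63530 in the IRF4-RV pair. Its level was 1156 ± 34.8 CPM with EV-RV and 1773 ± 39.8 CPM with IRF4-RV (SD, n = 2 each) without overlap. The log2 fold change was 0.62 ± 0.0712 SE (edgeR adjusted p = 0.000788). Differences between the fold changes of genes were not tested in the fit. Counts of *B2m* per count of *H2-K1* were 0.928 and 0.902 with EV-RV against 1.29 and 1.21 with IRF4-RV.

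Per length of exon, the heavy chains could be set beside each other and beside *B2m*. Levels are given here in TPM, counts per kilobase of exon scaled to a fixed sum in each library. The 4 heavy chains of the list and 22 others of the H2 complex summed to 2857 and 2831 TPM with EV-RV against 3482 and 3484 TPM with IRF4-RV. *H2-D1* made up 46.1% and 46.4% of this sum with EV-RV against 46% and 45.9% with IRF4-RV. *H2-K1* made up 33.7% and 34% with EV-RV against 28.7% and 28.6% with IRF4-RV. The share of *H2-T23* was 2.1% and 2.24% with EV-RV against 6.09% and 6.36% with IRF4-RV. The share of *H2-D1* thus stayed within 1 percentage point, that of *H2-K1* was lower in both IRF4-RV libraries and that of *H2-T23* was higher in both. The TPM of *B2m* was 1.07 and 1.05 times the sum of the heavy chains with EV-RV against 1.26 and 1.18 with IRF4-RV. With the longest transcript as length these ratios were 0.821 and 0.803 with EV-RV against 0.987 and 0.925 with IRF4-RV, so the order of the groups held while the side of 1 did not.

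**Figure D3:**
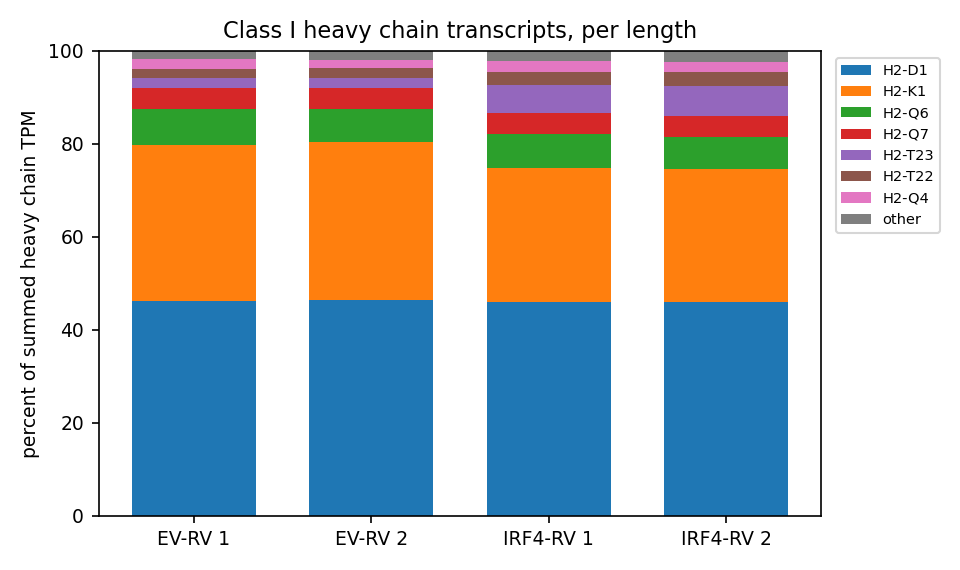
Share of each class I heavy chain in the summed heavy chain level per length (percent of TPM) in the 4 libraries, as stacked bars. *H2-K1* takes 33.7% and 34% with EV-RV against 28.7% and 28.6% with IRF4-RV, and *H2-T23* 2.1% and 2.24% against 6.09% and 6.36%.

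Of the 22 other heavy chains of the H2 complex, 8 passed the filter on low counts. Of these 8, 6 rose and 0 fell, beside the background of 16.0% and 13.7%, and the median log2 fold change was 0.51. DESeq2 and an unadjusted p under 0.05 gave the counts of 6 and 0 as well. Of all genes tested, DESeq2 called 1957 higher and 1639 lower, and 18.4% were higher and 16.2% lower at the unadjusted cutoff. Some called genes share 50-base stretches with one another, so the 6 calls are not 6 separate observations. The counts describe this list and are not a test of it. *H2-T24*, a nonclassical gene of the T region, had 63 and 75 counts in the EV-RV pair against 663 and 674 in the IRF4-RV pair (log2 fold change 3.16, edgeR adjusted p = 1.06e-05), the largest change of the list. *H2-T22*, a ligand of γδ T cells, rose from 84.6 and 90 to 157 and 178 CPM (log2 fold change 0.94). The closely related *H2-T10* rose by 0.66 on the log2 scale, from 377 and 310 to 508 and 670 counts. These 2 share 50-base stretches over 34.5% of *H2-T22* and 32.9% of *H2-T10*, and each overlaps an opposite-strand gene. *H2-Q7*, which encodes Qa-2, rose from 235 and 251 to 326 and 338 CPM (log2 fold change 0.45), and shares 26.4% of its 50-base stretches with other genes. Outside the rule for named genes, *H2-Q6* (0.36) and *H2-M3* (0.53) rose as well, and *H2-Q1* (0.13) and *H2-Q10* (0.49) did not pass. Without EV-RV replicate 1 the call of *H2-M3* was lost (edgeR adjusted p = 0.127), and without EV-RV replicate 2 *H2-Q10* passed (edgeR adjusted p = 0.0898).

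In the loading complex, *Tapbp* and *Tap1* rose, while *Tap2* did not pass the test. *Tap1* and *Tap2* encode the 2 chains of the peptide transporter. *Tap1* (chr17:34187553-34197225, plus strand) had 7882 and 7349 counts in the EV-RV pair against 16597 and 18795 in the IRF4-RV pair. Its level rose from 235 ± 2.23 to 503 ± 18.5 CPM (SD, n = 2 each), without overlap of the groups (log2 fold change 1.10 ± 0.0718 SE, edgeR adjusted p = 4.3e-05). *Tap2* (chr17:34203527-34216321, plus strand) had 2518 and 2425 counts in the EV-RV pair against 2997 and 3102 in the IRF4-RV pair. With 76.2 ± 1.02 and 86.8 ± 2.33 CPM (SD, n = 2 each), its groups did not overlap, but its log2 fold change of 0.19 (± 0.0755 SE, edgeR adjusted p = 0.119, unadjusted 95% interval 0.014 to 0.36) did not pass. Counts of *Tap1* per count of *Tap2* were 3.13 and 3.03 with EV-RV against 5.54 and 6.06 with IRF4-RV.

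*Tap1* and *Tap2* lie next to 2 immunoproteasome genes, in the order *Psmb9*, *Tap1*, *Psmb8*, *Tap2* along the chromosome, with log2 fold changes of 0.47, 1.10, 0.27 and 0.19. The first 3 of these genes rose, and *Tap1* had the largest value of the 4. *Psmb9* runs in the opposite direction and its exons share 212 bases with those of *Tap1*, 3.87% of the exon length of *Tap1*. Exons of *Tap2* overlap the opposite-strand gene *Gm15821* over 14.1% of their length.

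*Tapbp*, which encodes tapasin, had the second largest fold change of the 10 genes. It lies at chr17:33915899-33929292 (plus strand) and had 3326 and 2983 counts in the EV-RV pair against 9251 and 10027 in the IRF4-RV pair. Its level rose from 97.1 ± 3.59 to 274 ± 1.6 CPM (SD, n = 2 each), and the groups were far apart. The log2 fold change was 1.50 ± 0.0735 SE (edgeR adjusted p = 1.31e-05). Its exons overlap the opposite-strand gene *Gm19412* over 24.9% of their length. *Tapbpl*, the tapasin-related editor TAPBPR on another chromosome, rose by a similar size from 365 and 368 to 1040 and 1088 counts (log2 fold change 1.42, edgeR adjusted p = 5.51e-05). Counts of *Tapbp* per count of *Tapbpl* were 9.11 and 8.11 with EV-RV against 8.9 and 9.22 with IRF4-RV, so the groups overlapped.

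The general chaperones of the loading complex did not pass the test. *Calr* (calreticulin) had 864 and 921 CPM with EV-RV against 928 and 958 CPM with IRF4-RV, a log2 fold change of 0.08 that turned to -0.01 with library size only. *Canx* (calnexin, -0.16) and *Pdia3* (ERp57, -0.06) did not pass either, with edgeR adjusted p values of 0.141 and 0.595, although *Canx* was called lower with library size only (-0.25, adjusted p = 0.0232). Of 15 ER chaperones and editors tested, 4 rose and 1 fell, with a median log2 fold change of 0.12. These are 26.7% and 6.67% of the list, beside the background of 16.0% and 13.7%, and on so few genes nothing is read from the difference. Next to *Tapbpl* the higher genes were *Uggt1* (0.52), the glucosyltransferase that returns misfolded glycoproteins to calreticulin, and *Pdia4* (0.42). Outside the rule for named genes, *Hsp90b1* rose (0.37) and *Bcap29* fell (-0.39), and the call of *Hsp90b1* was lost without IRF4-RV replicate 1 (edgeR adjusted p = 0.106). Counts of *Tapbp* per count of *Calr* were 0.115 and 0.103 with EV-RV against 0.294 and 0.288 with IRF4-RV.

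**Figure D4:**
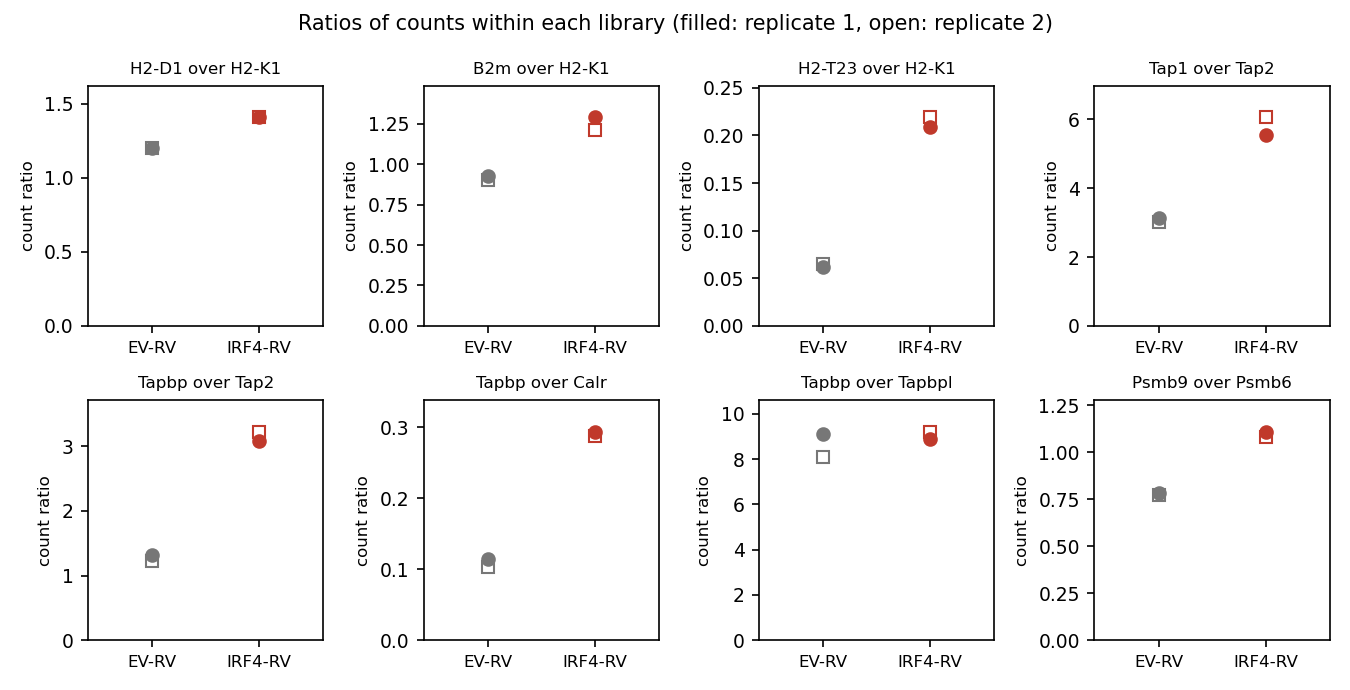
Ratios of counts of 2 genes within a library (linear scale from 0), filled circles for replicate 1 and open squares for replicate 2 of each group. For *H2-D1* over *H2-K1* the replicates coincide at 1.2 and 1.41, and only *Tapbp* over *Tapbpl* overlaps between the groups shown.

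*Erap1*, which encodes the ER aminopeptidase that trims peptides to the length class I can bind, did not pass the test. It lies at chr13:74639568-74693201 (plus strand) and had 6333 and 5713 counts in the EV-RV pair against 6219 and 6418 in the IRF4-RV pair. The libraries overlapped, with 186 ± 6.09 and 180 ± 5.19 CPM (SD, n = 2 each). The log2 fold change was -0.04 (± 0.0729 SE, edgeR adjusted p = 0.721), with an unadjusted 95% interval of -0.21 to 0.13. Its promoter sequence holds the first form of the IRF repeat, as do those of *H2-T23* and *B2m*, which rose. Its exons overlap those of *Cast* on the opposite strand over 11.5% of their length.

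Of 15 genes of peptide supply upstream of TAP that were tested, 4 rose and 3 fell, with a median log2 fold change of 0.06. These are 26.7% and 20.0% of the list, near the background of 16.0% and 13.7%, and with library size only 2 were higher, so nothing is read from these counts. Among the inducible immunoproteasome subunits, *Psmb9* rose from 150 and 173 to 214 and 234 CPM (log2 fold change 0.47, edgeR adjusted p = 0.00953). *Psmb8* rose by 0.27 on the log2 scale (edgeR adjusted p = 0.0717), a call lost without EV-RV replicate 1 (0.247), without IRF4-RV replicate 2 (0.355) and with library size only (0.139). *Psmb10* did not pass (0.06). *Psme1*, a subunit of the proteasome activator PA28, rose by 0.40, and its partner *Psme2* did not pass at 0.22 (edgeR adjusted p = 0.127) but did without EV-RV replicate 2 (0.0568). The cytosolic peptidases *Thop1*, which destroys class I peptides, and *Lap3* fell by 0.83 and by 0.45 on the log2 scale. Outside the rule, *Lnpep* rose (0.39) and *Psme3* fell (-0.36). Without EV-RV replicate 1 the number of higher genes dropped to 2, since *Lnpep* (edgeR adjusted p = 0.152) was lost together with *Psmb8*, and *Lnpep* was lost also without IRF4-RV replicate 1 (0.343).

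*Nlrc5*, which encodes the transactivator of class I genes, had the lowest level per length of the 10 genes. It lies at chr8:94434356-94527272 (plus strand) and had 1591 and 1297 counts in the EV-RV pair against 2695 and 2442 in the IRF4-RV pair. Its level rose from 44.4 ± 4.63 to 73.3 ± 8.84 CPM (SD, n = 2 each) without overlap of the groups (log2 fold change 0.72 ± 0.114 SE, edgeR adjusted p = 0.00351). Leaving out 1 library gave 0.57 to 0.85, the widest range of the 10 genes. *Ciita*, the related transactivator of class II genes, stayed at 24 to 40 counts in every library and did not pass (0.10).

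Of 17 regulators of class I transcription tested, 9 rose and 1 fell (52.9% and 5.88%, beside the background of 16.0% and 13.7%), with a median log2 fold change of 0.24. *Stat2* and *Irf9*, which act in type I interferon signaling, rose by 1.88 and 1.72 on the log2 scale. *Irf9* had 656 and 670 counts in the EV-RV pair against 2374 and 2352 in the IRF4-RV pair. *Irf1*, an activator of class I promoters, rose from 690 and 628 to 1885 and 1829 counts (log2 fold change 1.38). Named outside the rule, *Relb* (0.86), *Rfxank* (0.76), *Irf2* (0.61), *Creb1* (0.37) and *Rela* (0.24) rose and *Irf8* (-0.32) fell. The call of *Irf8* was lost without IRF4-RV replicate 2 (edgeR adjusted p = 0.134), that of *Creb1* without IRF4-RV replicate 1 (0.118) and that of *Rela* without EV-RV replicate 1 (0.213) or either IRF4-RV library (0.381 and 0.195). Without EV-RV replicate 2, *Rfxap*, likewise outside the rule, was also called lower (-0.37, edgeR adjusted p = 0.0765).

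**Figure D5:**
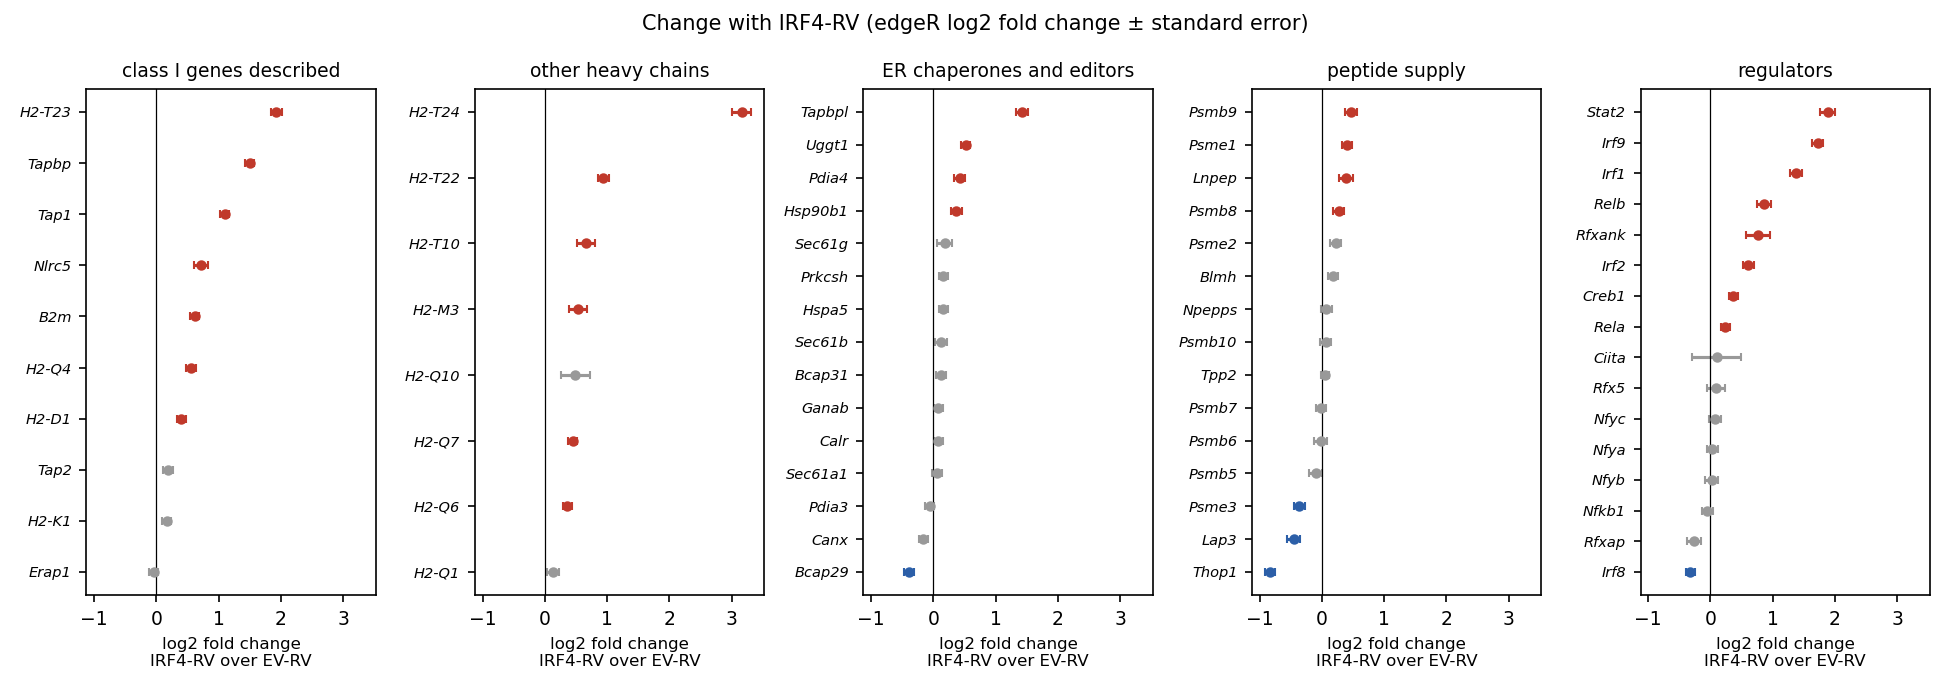
Log2 fold change (IRF4-RV minus EV-RV) with its standard error for the class I genes and for genes of 4 other lists, in red for genes called higher, blue for genes called lower and gray for genes that did not pass the FDR cutoff of 0.1 in edgeR. Among the 10 class I genes the values run from -0.04 (*Erap1*) to 1.93 (*H2-T23*).

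By level per length, *B2m*, *H2-D1* and *H2-K1* stood far above the other genes in both groups. With EV-RV their means were 3008, 1315 and 962 TPM, followed by *Tap1* with 96 TPM. *H2-T23* (61.8 TPM), *Tapbp* (60), *H2-Q4* (58.3) and *Erap1* (57.1) came next, and each of these neighbours overlapped the following one. *Tap2* (45.1) and *Nlrc5* (11.7) were the lowest. With IRF4-RV the order was *B2m* (4250 TPM), *H2-D1* (1601), *H2-K1* (997), *H2-T23* (217), *Tap1* (189), *Tapbp* (156), *H2-Q4* (79.1), *Erap1* (51), *Tap2* (47.4) and *Nlrc5* (17.8), and no neighbours overlapped. The group of 4 that could not be told apart with EV-RV was thus spread from 51 to 217 TPM. With the longest transcript as length, *Tap1* came before *H2-T23* with IRF4-RV. With EV-RV the group of 4 then came in the order *Tapbp*, *Erap1*, *H2-T23* and *H2-Q4*. Whether these neighbours overlapped under that length is not given here.

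Class II presentation was looked at for comparison, and 4 of its 10 genes rose and 1 fell, with a median log2 fold change of 0.10, and nothing is read from these few counts beside the background of 16.0% and 13.7%. *Cd74*, the invariant chain, had 636 and 485 counts in the EV-RV pair against 2625 and 2540 in the IRF4-RV pair (log2 fold change 2.09). *H2-Oa* rose from 112 and 140 to 222 and 250 counts (0.78). *H2-DMb2* fell by 0.90 on the log2 scale, from 78 and 68 to 47 and 37 counts, a call lost without EV-RV replicate 1 (edgeR adjusted p = 0.218), EV-RV replicate 2 (0.148) or IRF4-RV replicate 2 (0.214) and with DESeq2 (adjusted p = 0.177). Outside the rule, *Ctss* (0.53) and *H2-Ob* (0.42) rose. Also outside the rule, the class II chain *H2-Ab1* had 67.4 and 74.3 CPM with EV-RV against 67.4 and 70.3 CPM with IRF4-RV, so the groups overlapped.

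Markers of other cells were counted in the same libraries. The 9 stromal markers summed to 50.7 and 95.3 CPM with EV-RV against 50 and 236 CPM with IRF4-RV. Their sum was higher in replicate 2 of both groups and highest in IRF4-RV replicate 2. *Dcn* and *Lum* had at most 2 counts, and 0 of 7 stromal markers tested passed in edgeR, in DESeq2 or at an unadjusted p under 0.05. These tests compare the conditions and do not address a difference between replicates. Without IRF4-RV replicate 2 the same 7 class I genes were called. The 8 dendritic cell markers summed to 45.8 and 49.2 CPM with EV-RV against 322 and 324 CPM with IRF4-RV, almost wholly from *Ccr7* (1476, 1508, 10764 and 11637 counts). Of 3 dendritic cell markers tested, *Ccr7* and *Flt3* (23, 14, 101 and 112 counts) were called higher, *Xcr1* had 1, 2, 8 and 15 counts, and *Itgax* and *Siglech* were at 0. The 10 macrophage markers summed to 1.53 and 1.49 CPM with EV-RV against 8.59 and 7.5 CPM with IRF4-RV, mostly from *Mrc1* (24, 23, 260 and 230 counts), with *Adgre1* at 0 and *Lyz2* at no more than 1 count. T cell markers summed to 347 to 388 CPM, mostly from *Lck*, with *Trac* at 613, 603, 391 and 420 counts and *Cd8a* at 0. NK cell, granulocyte and erythroid markers summed to at most 14.6 CPM in each library. What part these differences have in the changes of the class I genes was not tested.

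The genes whose profile over the 4 libraries lay closest to the median profile of the 10 class I genes were *Cyp4f16*, *Stk38*, *Nemp1*, *Capns1* and *Pik3r5*. Likeness was the Euclidean distance of centered log2 CPM over 4 libraries, 0.0206, 0.0279, 0.0319, 0.0328 and 0.0355 among 11725 genes ranked. *Capns1* had 136 and 132 CPM with EV-RV against 203 and 200 CPM with IRF4-RV (log2 fold change 0.59), close to the median of the 10. With 2 libraries a group, such a profile holds little more than the size of the change and its spread.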

How the data were processed

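Bulk RNAseq of T8 cells was analyzed as 4 libraries, 2 with EV-RV and 2 with IRF4-RV, grouped by their labels. Titles and tissue label the cells T8, which was used here, whereas the growth and treatment protocols speak of T11. Per the submitters' processing notes and the study's methods, reads were checked with FastQC 0.11.2, aligned to GRCm38 with STAR 2.4.0j and assigned to genes by featureCounts. What the authors deposited were raw counts without normalization for 55359 Ensembl identifiers, of which 52083 were matched to GENCODE M21 (GRCm38). How counting treated strand and multimapping reads is not given in the sources used here, and genes that overlap or nearly match are uncertain.

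Counts were analyzed in R 4.3.3 with edgeR 4.0.16 (filterByExpr, TMM factors, quasi-likelihood F test, condition only, Benjamini-Hochberg adjustment over 14637 genes, FDR 0.1). TMM factors ranged from 1.01 to 1.05 in EV-RV and from 0.964 to 0.975 in IRF4-RV. Replicates of a group were farther apart than sampling noise (chi-square over its degrees of freedom 14.1 for EV-RV, 13.1 for IRF4-RV). TPM used the union of exons as length. The procedure was tested on simulated data. The 10 genes, the other 7 lists and the markers were chosen with earlier results of these data known, so lists are described by counts and medians without a test. Of the symbols listed, *Raet1a*, *Raet1b*, *Raet1c*, *H60a* and *Nrdc* were not matched, and 1 regulator is counted with its list but not reported here.

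Genes named were *Irf4*, the 10 class I genes, up to 3 called genes of each list with the largest change and a mean of at least 50 counts, 14 further genes of these pathways whichever way they moved, and the 5 genes nearest in profile. Others, marker genes among them, lie outside this rule and were chosen after their values were seen. Alternatives were DESeq2 1.42.0, its size factors in edgeR, library size only, at least 1 count or 1 CPM in 2 libraries as filter, the replicate block, an FDR of 0.05, the longest transcript as length, a promoter window from 150 bases before the start, and leaving out each library in turn.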

Additional observations from a re-analysis of the deposited data

How the results depend on the processing

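The 7 calls among the 10 class I genes were made under every alternative run. At an FDR of 0.1, the replicate block gave 9 calls, adding *H2-K1* (log2 fold change 0.17, adjusted p = 0.00826) and *Tap2* (0.19, 0.0148). In that fit 23.4% of all genes tested were called higher and 20.3% lower. Leaving out 1 library gave 0.11 to 0.22 for *H2-K1* and 0.14 to 0.22 for *Tap2*. The labels share replicate numbers 1 and 2, libraries of the same number deviated together with r = 0.26 over genes, and 2 pairs are too few to take the numbers as pairs. That fit also gave 8 higher and 2 lower ER chaperones and editors, 2 lower regulators, 2 lower class I-like genes, 2 lower class II genes and 5 higher interferon receptor genes. With library size only, 1 class I-like gene, 2 ER chaperones and 2 regulators were lower and 2 peptide supply genes higher. *Calr* (-0.01) and *Psmb10* (-0.03) changed sign there without passing. A filter of at least 1 CPM in 2 libraries gave 2 lower ER chaperones and 2 lower regulators, and DESeq2 and an FDR of 0.05 each gave 0 lower class II genes. With each library left out, lower class I-like genes numbered 0 to 1, lower regulators 0 to 2, lower class II genes 0 to 1 and higher peptide supply genes 2 to 5, *Psmb10* ranged from -0.03 to 0.15, passing -0.0026, and *Ciita* from -0.26 to 0.39, passing -0.11. With the promoter search begun 150 bases before the start, κB matches were 1 in place of 2 and 0 in place of 1, the first form of the IRF repeat kept 3, the second form had 2 in place of 3 and either form 5 in place of 6, the last 2 searches being chosen after the data were seen. The cause of these shifts was not tested, and nothing is read from the counts of the other lists under these settings. With 2 libraries a group, a change as small as that of *Tap2* did not pass without the block.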

Other observations

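Class I-like molecules outside the H2 complex were also measured. Of 12 genes matched, 7 passed the filter on low counts, 3 of these rose and 0 fell, with a median log2 fold change of 0.47, and DESeq2 called 2 higher and 0 lower. The edgeR calls are 42.9% and 0.00% of those tested, beside the background of 16.0% and 13.7%. At an unadjusted p under 0.05, 4 were higher and 0 lower, beside 18.4% and 16.2% of all genes tested. Nothing is read from these few counts. *Mr1*, which presents vitamin B metabolites to MAIT cells, had 259 and 239 counts in the EV-RV pair against 380 and 444 in the IRF4-RV pair (log2 fold change 0.61, edgeR adjusted p = 0.00918). *Cd1d1*, which presents lipids to NKT cells, rose from 20.9 and 20.9 to 29.5 and 28.2 CPM (0.47), and 19.1% of its 50-base stretches are shared with *Cd1d2*. *Procr*, outside the rule for named genes, was called higher on 2, 4, 12 and 28 counts, a call lost without EV-RV replicate 1, EV-RV replicate 2 or IRF4-RV replicate 2 (edgeR adjusted p = 0.215, 0.115 and 0.295). *Ulbp1*, likewise outside the rule, was called lower without EV-RV replicate 2 (-0.38, edgeR adjusted p = 0.0723) or IRF4-RV replicate 1 (0.0673), and *Hfe* without IRF4-RV replicate 2 (-2.12, 0.0106). *Fcgrt*, the neonatal Fc receptor and also outside the rule, had 5, 15, 14 and 72 counts and passed as higher without IRF4-RV replicate 1 (log2 fold change 2.64, edgeR adjusted p = 0.0001), but not with all libraries (1.94, adjusted p = 0.132).

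Of the 7 receptors of interferon and their kinases, 3 rose and 0 fell in edgeR and in DESeq2, with a median log2 fold change of 0.31. In edgeR these are 42.9% and 0.00% of the list, beside the background of 16.0% and 13.7%. At an unadjusted p under 0.05, 4 were higher and 0 lower, beside 18.4% and 16.2% of all genes tested. On so few genes nothing is read from these differences. *Ifnar1* and *Ifnar2*, the chains of the type I interferon receptor, rose by 1.02 and 0.69 on the log2 scale. *Ifnar1* had 1088 and 868 counts in the EV-RV pair against 2213 and 2076 in the IRF4-RV pair. *Ifngr2*, a chain of the interferon-γ receptor, rose by 0.41, a call lost without IRF4-RV replicate 1 (edgeR adjusted p = 0.121).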
